A study of Pistacia chinensis with 8 samples.

Results

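The miRNA families miR473 and miR477 were followed in inflorescence buds of Chinese pistache (Pistacia chinensis) of 4 sex types at 2 stages of sex differentiation, stages B and C. Every row of the count table whose name after the species prefix is miR473 or miR477, with no further digit, was taken, which gave 10 of 471 rows, 9 of miR477 and 1 of miR473. The families were chosen by measured values, the male and female read counts in which miR477 differed in opposite directions at the 2 stages, so those values are given as a description, without a test. Female buds were of strain C1, male buds of strain X1, and monoecious female and bisexual buds both of strain T2, with 1 small RNA library for each sex type and stage, 8 in all. A sex type was thus 1 strain, and the labels do not say whether a library came from 1 tree or a pool.

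miR473 and miR477 were first described in poplar, where GRAS-domain transcription factors were among their predicted targets. GRAS proteins include the DELLA repressors of gibberellin signalling and the SCARECROW-like and HAIRY MERISTEM regulators of meristems, and the unrelated miR171 family also cleaves transcripts of this group. In other plants miR477 has been reported to act on further genes, so the family name alone does not give a target in Pistacia, and no target transcripts were analysed here. Of the 10 rows, 3 carried the prefix of a tree, 2 of sweet orange (csi) and 1 of poplar (ptc), and 7 carried prefixes of cassava (mes), tobacco (nta) or columbine (aqc). The table pairs no sequence with a row, so the rows are named as deposited and none is printed.

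Reads on miRNA rows numbered 419169 to 1159015 in 7 libraries and 160129 in bisexual buds at stage B. Levels are CPM on TMM-normalised library sizes, a scaling of edgeR that lines up the bulk of the rows. A count of 3 reads, the floor used where a library held 0, stood for 3.77 to 5.55 CPM in 7 libraries and 18.4 CPM in bisexual buds at stage B. All miR473 and miR477 levels in that library rest on at most 14 reads per row. The TMM factors were 0.686 to 1.02 for stage B libraries and 1.22 to 1.32 for stage C libraries, so ratios between stages depend on scaling, as do ratios that use bisexual buds at stage B.

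5 miR477 rows held at least 50 reads over the 8 libraries and are described in full. They shared one order at stage C, with most in female, then monoecious female, male and bisexual buds, in 5 of 5 rows. At stage B the female library was instead the lowest of the 4 in 5 of 5 rows. Both counts were 5 of 5 with total counts alone and with RLE factors as well. In csi-miR477b and aqc-miR477e, however, the 95% counting intervals of the ratios between neighbouring libraries all included 1 at both stages. The place of female against male buds in both orders is the contrast by which the families were chosen. How many of all rows share these orders was not counted. The 5 miR477 rows are names of one family and may hold the same reads, so the agreement among them is not 5 separate observations. Pairs of these rows had Pearson correlations of 0.763 to 0.969 in log2(CPM + 1) over the 8 libraries, which share depth and scaling.

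nta-miR477a, the row with most reads (803 in all), was counted 30, 118, 67 and 14 times in the stage B libraries of female, male, monoecious female and bisexual buds. The stage C libraries, in the same order, held 216, 93, 174 and 91 reads of it. In CPM these are levels of 37.7, 177, 115 and 85.8 for stage B, and 365, 172, 279 and 140 for stage C. Female buds thus had the lowest level of all 8 libraries at stage B and the highest at stage C, while male buds stood at nearly the same level at both stages. By abundance, with the rows of a library ranked from 1 of 471 downward, nta-miR477a went from rank 162 to 73 in female buds and from rank 95 to 112 in male buds. In monoecious female buds the rank went from 127 to 98 and in bisexual buds from 127 to 124.

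mes-miR477a, with 699 reads, had 16.3, 94.5, 99.3 and 73.5 CPM at stage B, again in the order female, male, monoecious female, bisexual. At stage C it had 360, 167, 264 and 130 CPM. At stage B the other 3 bud types were not separated by counting error, since the intervals of neighbouring ratios included 1, and the female library alone was far below them. Male over bisexual buds had a ratio of 1.29 (0.687 to 2.62) there, which leaves room for a difference of more than 2-fold. At stage C female over monoecious female buds had a ratio of 1.36 (95% counting interval 1.11 to 1.68) and monoecious female over male buds one of 1.59 (1.22 to 2.08). Male and bisexual buds were not separated by counting error at stage C, at a ratio of 1.28 (0.938 to 1.74).

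**Figure D1:**
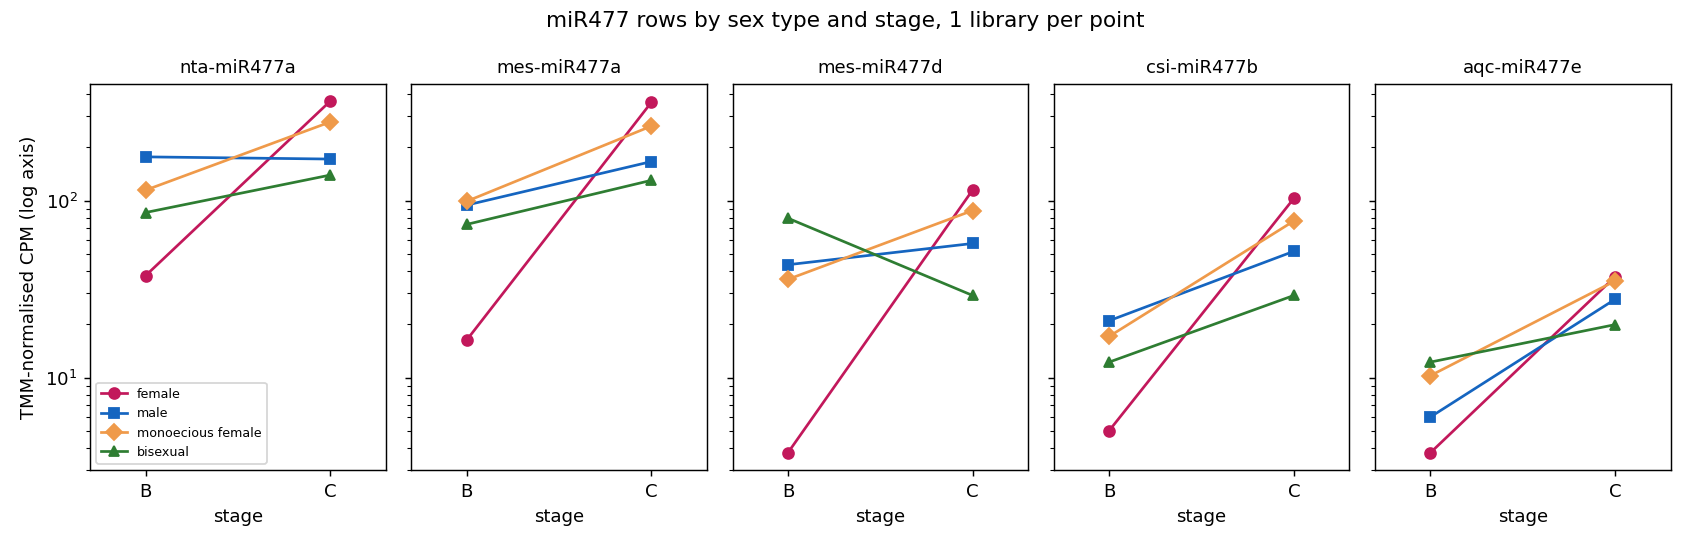
TMM-normalised CPM on a log axis at stages B and C for the 5 miR477 rows with at least 50 reads, 1 library per point, with lines joining the libraries of a sex type. Female buds (circles) are lowest at stage B and highest at stage C in every panel, and bisexual buds (triangles) are lowest at stage C, and mes-miR477d goes from 79.7 to 29.2 CPM in bisexual buds while it is higher at stage C in the other sex types.

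3 further rows were less abundant. mes-miR477d had 3.77, 43.5, 36.0 and 79.7 CPM at stage B and 115, 57.4, 88.1 and 29.2 CPM at stage C, in the order female, male, monoecious female, bisexual. In this row the bisexual library was the highest at stage B and the lowest at stage C, from 13 and 19 reads. csi-miR477b, named after sweet orange, a tree of the same plant order as pistache, had 5.03, 21.0, 17.1 and 12.3 CPM at stage B and 103, 51.8, 76.9 and 29.2 CPM at stage C. aqc-miR477e ran from 3.77 to 12.3 CPM at stage B, on 2 to 6 reads per library, and from 19.96 to 37.2 CPM at stage C. All 4 stage C libraries lay above all 4 stage B libraries in csi-miR477b, aqc-miR477e and mes-miR477a, as they did in 17.3% of the 248 rows tested for stage below, and the stages overlapped in mes-miR477d and nta-miR477a. aqc-miR477e was among the 248 through its stage C reads only, so its separation is not counted as support.

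The remaining 5 rows held few reads. csi-miR473, the only miR473 row, had 0, 2, 0 and 2 reads at stage B in this order and 10, 7, 10 and 9 reads at stage C. Its 0 reads at stage B in female and monoecious female buds allow levels of up to 3.77 and 5.14 CPM. With the floor of 3 reads put in place of 0, the ratio of stage C to B was 4.49 in female and 3.12 in monoecious female buds. The lower ends of their exact counting intervals, 3.02 and 2.10, lie below those values. In male and bisexual buds the stage ratios were 4.32 (0.822 to 42.6) and 1.13 (0.233 to 10.7), with intervals that included 1. At stage C its 4 libraries lay between 12.95 and 16.9 CPM, with a male over female ratio of 0.766 (0.247 to 2.23), so no sex difference was detectable at this depth. mes-miR477i had 1 to 4 reads in each stage B library and 7 to 13 in each stage C library. ptc-miR477d-5p, the only row named after poplar, had 8 reads in 4 libraries, 6 of them at stage B, and mes-miR477h and nta-miR477b had 6 and 1 reads in all.

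The comparison of male with female buds asked for miRNAs that differ between the sexes of dioecious trees, and in miR477 the difference ran in opposite directions at the 2 stages. nta-miR477a was 4.70 times the female level in male buds at stage B (95% interval 3.12 to 7.26) and 0.471 times at stage C (0.365 to 0.603). For mes-miR477a the male over female ratios were 5.79 (3.15 to 11.5) and 0.462 (0.357 to 0.594). These 2 rows were among 148 rows with at least 50 reads in the 2 libraries at each stage, of which 1.35% had a ratio of at least 2 in opposite directions, and no row other than these 2 did (1.71% with near-identical rows counted once). Taken singly, 11.2% of rows were at least 2-fold higher in male buds at stage B and 8.72% at least 2-fold lower at stage C. Since the reversal was known when the rows were chosen, these shares are background, and strain X1 cannot be told apart from male sex nor C1 from female sex.

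mes-miR477d and csi-miR477b had fewer than 50 reads at stage B and were not among the 148. mes-miR477d had a male over female ratio of 11.5 at stage B (3.58 to 59.2), from 29 and 3 reads, and of 0.499 at stage C (0.315 to 0.773). csi-miR477b had 4.18 (1.31 to 17.4), from 14 and 4 reads, and 0.502 (0.309 to 0.798), which is short of 2-fold. aqc-miR477e had 1.59 and 0.746, with intervals that included 1 at both stages. In all, 4 of the 5 rows had an interval above 1 at stage B and below 1 at stage C, as 8.68% of the 242 rows with at least 50 reads over the 8 libraries had. Intervals cover counting error only, since PCR copies of a molecule could not be recognised, and say nothing of the spread between trees.

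**Figure D2:**
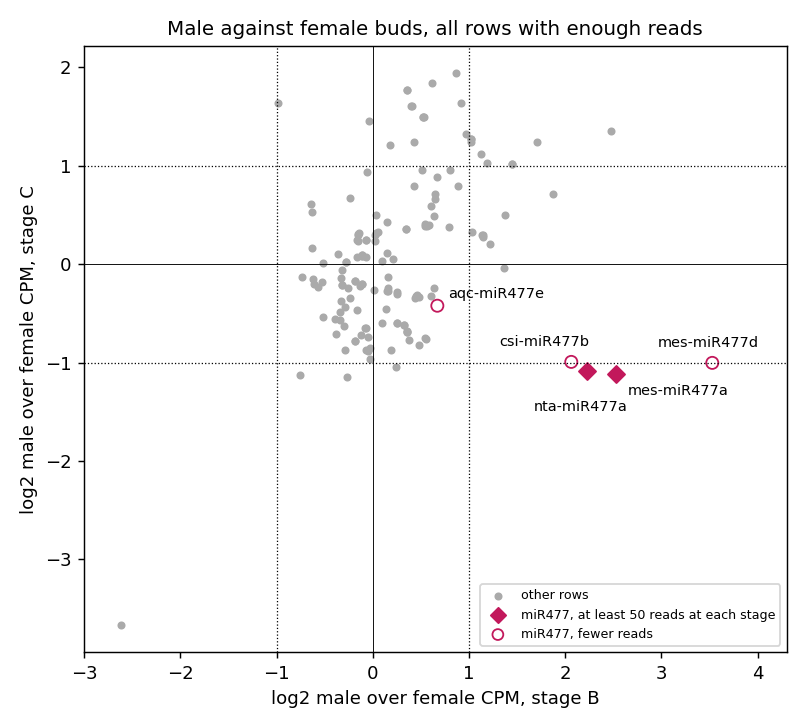
Log2 ratio of male over female CPM at stage B (x axis) and stage C (y axis) for the 148 rows with at least 50 reads at each stage (grey points and filled diamonds) and for 3 miR477 rows with fewer reads (open circles). Dotted lines mark 2-fold. nta-miR477a and mes-miR477a are the only rows with enough reads beyond 2-fold at the lower right, that is, higher in male buds at stage B and lower at stage C.

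The pair of bisexual and monoecious female buds lies within strain T2. At stage C the direction was that of male against female buds, with less miR477 in the buds that carry stamens. nta-miR477a was 0.501 times the monoecious female level in bisexual buds (0.385 to 0.650) and mes-miR477a 0.494 times (0.375 to 0.645). For csi-miR477b and mes-miR477d the ratios were 0.379 (0.211 to 0.657) and 0.331 (0.186 to 0.567), so 4 of 5 rows had an interval below 1, against 28.9% of the 242 rows. By the 2-fold criterion, which nta-miR477a did not reach, 7.91% of all rows with at least 50 reads were lower in bisexual buds at stage C. mes-miR477a reached it with TMM only, since its ratio was 0.535 with total counts alone and 0.502 with RLE factors.

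At stage B the 2 pairs of bud types differed. nta-miR477a and mes-miR477a had bisexual over monoecious female ratios of 0.748 (0.388 to 1.34) and 0.740 (0.362 to 1.39), and with total counts alone 1.07 and 1.06, so neither showed the higher level of male buds. mes-miR477d did, at 2.21 (1.02 to 4.64) from 13 and 21 reads, which made it the only one of the 5 rows with intervals above 1 at stage B and below 1 at stage C in this pair, against 6.2% of the 242 rows. No miR477 row with at least 50 reads per pair was past 2-fold in opposite directions here, as 2.8% of all such rows were. With a minimum of 20 reads in place of 50, mes-miR477d was past 2-fold in opposite directions in both pairs of bud types. Its male over female ratio at stage C, 0.499, was 0.515 with total counts alone, which is short of 2-fold. The bisexual library at stage B was the shallowest, and 43.7% of all rows with at least 50 reads were at least 2-fold lower and 15.9% at least 2-fold higher there than in monoecious female buds. Whether its depth takes part in the value of mes-miR477d was not tested.

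**Figure D3:**
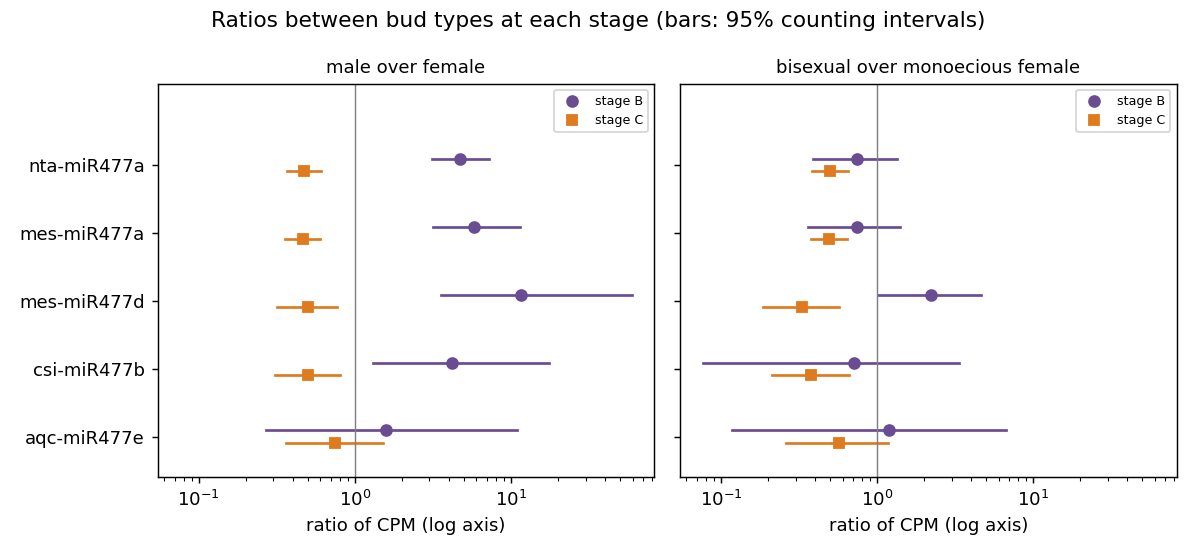
Ratios of CPM on a log axis for the 5 miR477 rows, male over female on the left and bisexual over monoecious female on the right, at stage B (circles) and stage C (squares). Bars are exact 95% counting intervals of 2 libraries, and the line marks a ratio of 1. On the left, 4 of 5 rows have bars above 1 at stage B and below 1 at stage C, whereas on the right only mes-miR477d does.

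Pistillate buds of the 2 sexual systems were also set against each other. At stage B monoecious female buds had 3.04 times the female level of nta-miR477a (1.95 to 4.85), 6.08 times that of mes-miR477a (3.29 to 12.1) and 9.54 times that of mes-miR477d (2.85 to 49.9). Across all rows 27.1% were at least 2-fold higher in monoecious female buds at this stage. At stage C the ratios for nta-miR477a and mes-miR477a were 0.763 (0.621 to 0.936) and 0.734 (0.595 to 0.903), below 1 but under 2-fold. An interval below 1 was found there in 16.5% of the 242 rows. In this pair too, 5 of 5 rows had a ratio above 1 at stage B and below 1 at stage C. In 2 of the 5 both intervals excluded 1, against 7.44% of the 242 rows. Opposite directions were thus not limited to male against female buds, and both pairs use the same female libraries. For nta-miR477a the bisexual over male ratio was 0.485 (0.257 to 0.846) at stage B, where 36.4% of all rows were at least 2-fold lower in bisexual buds. With total counts alone it was 0.637 and with RLE factors 0.574, short of 2-fold. At stage C it was 0.812 (0.601 to 1.10). At stage B 1 of 5 rows had an interval below 1, against 35.1% of the 242 rows. mes-miR477a had 0.778 (0.382 to 1.46) there. mes-miR477d lay the other way at stage B, at 1.83 (0.874 to 3.63), and had 0.508 (0.271 to 0.929) at stage C. The female library at stage B thus stood below each of the others. The monoecious female over female intervals included 1, however, in csi-miR477b at 3.41 (0.983 to 14.9) and aqc-miR477e at 2.73 (0.582 to 16.8). Both comparisons set strain T2 against another strain.

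The stage comparison asked which miRNAs changed as buds went from stage B to C. The ratio of stage C to stage B was largest in female buds in each of the 5 rows. Its excess over the male ratio restates the reversal by which the families were chosen and is no separate result. In aqc-miR477e the female ratio of 9.87 (2.96 to 51.5) and the male one of 4.63 (1.47 to 19.1) had overlapping intervals. In nta-miR477a the stage ratio was 9.69 in female (6.59 to 14.7), 2.43 in monoecious female (1.82 to 3.27), 1.63 in bisexual (0.922 to 3.10) and 0.972 in male buds (0.733 to 1.29). With total counts alone the male ratio became 1.62, so its direction depended on scaling. In mes-miR477a the ratios were 22.0 (12.6 to 42.1), 2.66 (1.96 to 3.65), 1.77 (0.965 to 3.57) and 1.76 (1.26 to 2.47) in the same order. In mes-miR477d bisexual buds went the other way, at 0.366 (0.172 to 0.806), against 30.5 in female buds, from 68 and 3 reads. Female and monoecious female buds had an interval above 1 in 5 of 5 rows, male buds in 3 and bisexual buds in 0. Of the 242 rows the shares were 40.1% in female, 34.3% in monoecious female, 40.1% in male and 33.5% in bisexual buds. At least 2-fold higher with at least 50 reads were 4 rows in female buds (29.3% of all rows), 4 in monoecious female (24.3%), 0 in male (23.6%) and 0 in bisexual buds (39.6%). In female buds the 4 rows held 3 to 30 reads at stage B, so they met the minimum through stage C. csi-miR477b and mes-miR477d did so in monoecious female buds too. aqc-miR477e and csi-miR477b, with 15 and 30 stage B reads in all, were described in full through stage C. These counts are thus not taken as support for a rise. With 1 library per sex type and stage, the difference in stage ratio between sex types was not tested.

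**Figure D4:**
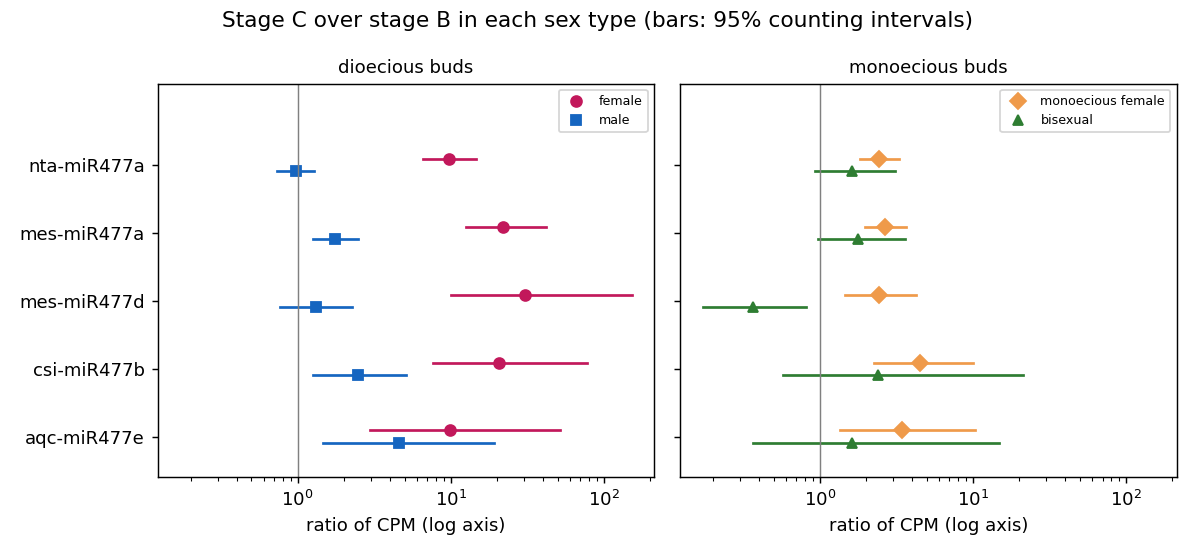
Ratios of stage C over stage B CPM on a log axis for the 5 miR477 rows in female and male buds (left) and in monoecious female and bisexual buds (right). Bars are exact 95% counting intervals. Female buds reach 9.69 to 30.5, and mes-miR477d in bisexual buds, at 0.366, is the only value whose bar lies below 1.

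Stage was tested over all 8 libraries with sex type as a second additive term (edgeR quasi-likelihood F-test). Here 7 of the 10 rows passed the filter of at least 10 reads in at least 2 libraries, and 0 of the 7 passed an adjusted p of 0.05 between stages. Of all 248 rows tested, 12.5% were called higher and 6.45% lower at stage C. 3 of the 7 rows, aqc-miR477e, csi-miR473 and mes-miR477i, entered through stage C libraries only, so the positive log2 changes of the 7 rows are not counted as support. Of the other 4 rows, csi-miR477b and mes-miR477a had an unadjusted p under 0.05, as did 31.9% of all rows. The test takes its spread from how sex types differ in their stage change. The male against female difference in stage change, by which the families were chosen, is part of that spread. Rows chosen for a large difference of this kind carry a large spread, so the absence of calls is not read as absence of a stage change.

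csi-miR477b came nearest to the threshold, with a log2 change of 2.26 (SE 0.67, edgeR adjusted p = 0.0573) from 13.9 ± 6.89 to 65.3 ± 31.9 CPM (SD, n = 4 libraries per stage, 1 of each sex type). aqc-miR477e had 2.04 (SE 0.61, edgeR adjusted p = 0.0596). mes-miR477a had 1.76 (SE 0.71, edgeR adjusted p = 0.139), from 70.9 ± 38.1 to 230 ± 103 CPM, and nta-miR477a 1.26 (SE 0.62, edgeR adjusted p = 0.195), from 104 ± 58.2 to 239 ± 103 CPM. mes-miR477d had 1.07 (SE 0.99, edgeR adjusted p = 0.481), mes-miR477i 1.803 (SE 0.70, edgeR adjusted p = 0.136) and csi-miR473 2.76 (SE 1.11, edgeR adjusted p = 0.139), the last with a fitted size that depends on the prior count.

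The calls depended on the libraries included and on scaling. Without both bisexual libraries nta-miR477a (log2 change 1.63, edgeR adjusted p = 0.0480), mes-miR477d (2.02, edgeR adjusted p = 0.0498), mes-miR477a (2.24, edgeR adjusted p = 0.0246) and csi-miR477b (2.64, edgeR adjusted p = 0.00742) passed, but 45.6% of all rows were called there. aqc-miR477e and csi-miR473 passed there too, both of which had entered the filter through stage C alone. With only the stage B bisexual library left out, 43.1% of all rows were called, and with only the stage C one 47.1%. In both cases csi-miR477b, mes-miR477a, aqc-miR477e and csi-miR473 passed and nta-miR477a and mes-miR477d did not. mes-miR477i passed without the stage B one. Without the female library of stage B or of stage C the log2 changes were 0.13 and 0.12 for mes-miR477d, 0.64 and 0.63 for nta-miR477a and 1.02 and 1.01 for mes-miR477a. Either way the female library that stays is taken up by its own sex type term, so the near-equal values are not separate results. Both leave out the female stage change, which is part of the contrast by which the families were chosen. With total counts alone csi-miR477b (2.97, edgeR adjusted p = 0.0209) and aqc-miR477e (2.74, edgeR adjusted p = 0.0240) passed, beside 23.4% of all rows, and the median change of all rows moved from 0.18 to 0.87. DESeq2 passed csi-miR477b, aqc-miR477e and mes-miR477a at adjusted p of 0.0111, 0.0409 and 0.0370, beside 27.4% of all rows.

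Averaged over the stages, miR473 and miR477 rows did not pass between sexual systems or within the monoecious strain. In monoecious (T2) against dioecious buds (C1 and X1) the 7 rows had log2 changes of -0.39 to 0.59, with edgeR adjusted p between 0.801 and 0.989, while 0.403% of all rows were called. In bisexual against monoecious female buds they had -1.11 to 1.12, with edgeR adjusted p between 0.789 and 0.996. For that pair no row of the 248 (0%) was called by edgeR, against 10 by DESeq2, and 7.66% had an unadjusted edgeR p under 0.05. mes-miR477d, with a ratio above 1 at stage B and below 1 at stage C in that pair, had 0.08 (SE 1.27) when the stages were averaged.

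The rows mes-miR477a and nta-miR477a held nearly equal counts at stage C and unequal counts at stage B. For every 100 reads of nta-miR477a, mes-miR477a had 98.6, 96.8, 94.8 and 93.4 at stage C, in the order female, male, monoecious female, bisexual. At stage B it had 43.3 in female buds, from 13 and 30 reads, and 53.4 in male buds, from 63 and 118 reads, against 86.6 and 85.7 in monoecious female and bisexual buds. Dioecious buds at stage B thus held a surplus of 17 and 55 reads on nta-miR477a over mes-miR477a, and the other 6 libraries one of 2 to 9 reads. No counting interval was taken for these ratios, and the female and bisexual ones at stage B rest on few reads. Ratios within a library do not depend on scaling. How reads were shared between rows is not given in the sources used here, so the surplus cannot be assigned to a variant sequence.

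**Figure D5:**
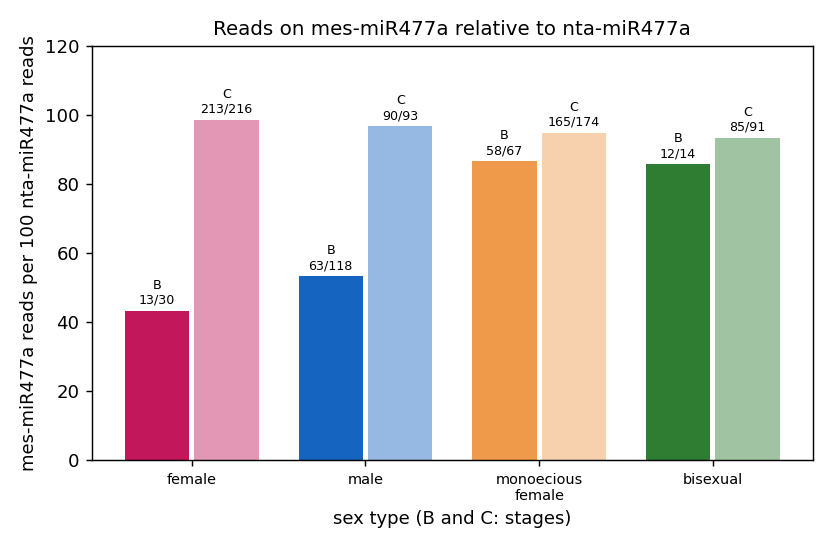
Reads on mes-miR477a per 100 reads on nta-miR477a in each library, with stage B (dark) and stage C (light) bars for each sex type and both read counts printed above each bar. Female and male buds at stage B, at 43.3 and 53.4, stand below the other 6 libraries, which lie between 85.7 and 98.6.

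Among rows outside the 2 families, those with the most similar pattern to each miR477 row were sought over the 8 libraries by Pearson correlation of log2(CPM + 1), from 196 rows with at least 50 reads and near-identical rows counted once. For nta-miR477a the 3 closest were novel_39, a miRNA predicted by the authors (r = 0.818), ath-miR390a-3p (0.806) and gma-miR403a (0.797). For mes-miR477a they were gma-miR403a (0.907), novel_39 (0.881) and ath-miR169b-5p (0.855). mes-miR477d was closest to ama-miR396-3p (0.924), novel_24 (0.897) and gma-miR403a (0.854). csi-miR477b was closest to novel_39 (0.933), ath-miR390a-3p (0.925) and aqc-miR171f (0.892), and aqc-miR477e to novel_11 (0.976), novel_39 (0.964) and ath-miR169b-5p (0.963). These rows too were higher at stage C than B in most sex types, and the correlations are given without a test.

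The other GRAS-targeting families were set beside miR477. Of 34 rows of miR170 and miR171 (miR479 had 0 rows), 15 were tested, and 4 were called higher and 0 lower at stage C (12.5% and 6.45% of all rows), with a median log2 change of 1.16 over the 15 against 0.18 over all 248 rows. The 4 were aqc-miR171f, ath-miR171b-3p, gma-miR171a and zma-miR171b-3p, with log2 changes of 2.004 to 2.056 and edgeR adjusted p of 0.0119 to 0.0121, and they had nearly the same counts. The miR171 sum over distinct rows had 0.91 (SE 0.35, edgeR adjusted p = 0.103) and did not pass, but passed with total counts alone (1.97, edgeR adjusted p = 0.00505). Summed over distinct rows, miR171 had 2.06 and 1.70 times the female level in male buds at stages B and C, so the sum stayed higher in male buds where that of miR477, at 5.10 and 0.501 times, did not. Single miR171 rows went both ways. Their log2 male over female ratios at stages B and C were 0.58 and 0.40 in aqc-miR171f, but -0.11 and -0.20 in ptc-miR171c and -0.13 and -0.22 in sly-miR171d. The miR477 values are those by which the family was chosen, and its rows may hold the same reads. The difference between the families was not tested. Of the 9 rows of the remaining numbers from miR472 to miR482, 3 were tested and 0 were called, with a median log2 change of -1.09. The miR482 sum, whose family targets disease resistance genes, had -1.45 (SE 0.40, edgeR adjusted p = 0.0357), but -0.38 with total counts alone, where it did not pass. The miR477 sum had 1.09 (SE 0.59, edgeR adjusted p = 0.204) and the miR473 row, as a family, 2.40 (SE 1.04, edgeR adjusted p = 0.138).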

How the data were processed

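Small RNA libraries of 8 bud samples, 1 per sex type and stage, were counted per miRNA row by the authors, and the deposited table holds raw read counts and TPM. CASAVA 1.8 and Bowtie are named in the submitters' processing notes. Genome build, miRBase release and the rule for sharing reads between rows were not stated there. The deposited TPM equalled each count divided by its library total, times 1000000, within 4.29e-05, and were not used further. 0 columns were left unmatched to a sample.

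The 248 of 471 rows reaching 10 reads in 2 or more libraries entered edgeR 4.0.16 under R 4.3.3 (TMM, quasi-likelihood F-test, stage and sex type additive, 3 residual degrees of freedom, common dispersion 0.268, Benjamini-Hochberg over all rows). P-values measure the sex type by stage spread, not a spread between trees. SE is the absolute log2 change over the square root of F. Ratios of 2 libraries carry exact conditional binomial (Clopper-Pearson) 95% intervals. A ratio counted as different at 2-fold with at least 50 reads in both libraries together. Near-identical rows, apart by no more than 5% or 2 reads in any library, were joined, which left 9 groups of the 10 rows (nta-miR477b joined mes-miR477h). Rows with at least 50 reads in all were described in full. The members, lists and tests were chosen with earlier results of these data known. Alternatives were RLE factors, total counts alone, other read minimums and folds, DESeq2 1.42.0, near-identical rows once, family sums and leaving out libraries. Family sums with total counts alone were added after the data were seen. The stage test, tested on simulated data of 248 rows with 50 altered, found 61.6% of the 4-fold and 100% of the 16-fold changes. For bisexual against monoecious female buds the same fit found 23.6% and 91.4%, and for monoecious against dioecious buds 65.4% and 100%. The simulated counts had a common dispersion, no added sex type by stage difference and rows of every abundance. These shares need not hold for the miR473 and miR477 rows.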

Additional observations from a re-analysis of the deposited data

Results flagged for a closer look

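2 rows moved in opposite directions at the 2 stages in male against female buds, past 2-fold at each stage. mes-miR477a had male over female ratios of 5.79 (stage B) and 0.462 (stage C), and nta-miR477a had 4.70 and 0.471. This reversal is the one by which the families were chosen, so the ratios are a description and no separate result. Each ratio compares 1 library with 1 library, the difference between the stages was not tested, and the 2 rows belong to one family. The female libraries carry the wider swing, since nta-miR477a went from 37.7 to 365 CPM there and from 177 to 172 CPM in male buds.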

How the results depend on the processing

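No paired analysis was possible because each sex type and stage had 1 library, beyond the stage test itself, whose sex type term sets stage C against B within each sex type. For the 7 rows tested between stages, 21 of 96 values under the alternatives passed where the main ones did not, most of them without a bisexual library. The number of all features called was 47, against 21 for family sums, 108 without both bisexual libraries and 0 to 112 when 1 library was left out (106 and 112 without a bisexual, 0 without a monoecious female, 4 without a female and 19 without a male library). The cause was not tested. For monoecious against dioecious buds it was 1, against 3 with a minimum of 50 reads, 7 with DESeq2, 2 for family sums, 5 without both bisexual libraries and 1 to 31 without 1 library (31 without bisexual buds at stage C, 3 at stage B). For bisexual against monoecious female buds it was 0, against 10 with DESeq2 and 0 to 54 without 1 library (54 without bisexual buds at stage C, 0 otherwise).

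Some changes reversed, and none of these passed before or after. In monoecious against dioecious buds mes-miR477a had -0.031 with no filter, -0.013 with a minimum of 50 reads and -0.017 with near-identical rows once, and without both bisexual libraries csi-miR473 had -0.30 and csi-miR477b 0.046. In that comparison, leaving out 1 library gave -0.11 to 0.79 for aqc-miR477e, -0.27 to 1.62 for csi-miR473, -0.77 to 0.61 for csi-miR477b, -0.51 to 1.23 for mes-miR477a, -0.64 to 1.99 for mes-miR477d and -0.70 to 0.64 for nta-miR477a. In bisexual against monoecious female buds it gave -1.03 to 0.61 for aqc-miR477e, -0.012 to 3.48 for csi-miR473, -1.85 to 1.42 for mes-miR477d and -0.32 to 0.36 for mes-miR477i. With total counts alone the family sums reversed to 0.10 for miR472 between stages and to 0.22 for miR171, 0.13 for miR477 and 0.47 for miR482 between sexual systems.

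The 2 rows past 2-fold in opposite directions in male against female buds were 2 or 3 under each alternative. In bisexual against monoecious female buds the number went from 0 to 1 with a minimum of 20 reads. Rows at least 2-fold higher at stage C went from 0 in male buds to 2 with total counts alone, 1 with a minimum of 20 reads and 1 at 1.5-fold, and from 0 in bisexual buds to 2, 1 and 2. The shallow bisexual library of stage B, where 1 read is 6.13 CPM, limits the values that use it.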
